A study of Mus musculus with 12 samples.

Results

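The replication-dependent histone genes supply the histones that package newly copied DNA. They were taken as every row of the count table whose symbol begins with Hist1h, Hist2h, Hist3h or Hist4h, without the pseudogene Hist3h2bb-ps, which gave 69 of 55453 genes. Of these, 6 encode the linker histone H1, 20 encode H2A, 18 encode H2B, 12 encode H3 and 13 encode H4. GENCODE release M21 lists 2 of the 69, Hist1h2aj and Hist1h2al, as pseudogenes. A filter on low counts left 16 of the 69 for testing, all on the plus strand, so every count of called genes below is over these 16 and not over the family.

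The source was the regulatory T (Treg) cell, a CD4 T cell that depends on the transcription factor Foxp3 and holds back immune responses. Cells positive for CD4 and Foxp3 were sorted from C57BL/6 mice, and the sample names and series title place them in the thymus. CNS4 is a distal enhancer of Foxp3, a gene of the X chromosome. The 12 libraries formed 4 groups of 3: males labelled CNS4 floxed (wild type), males labelled CNS4 knockout, females labelled CNS4 floxed heterozygotes and females labelled CNS4 knockout heterozygotes. The cells were not treated after the sort, and the mice were stated to be matched for age and sex. The labels gave no age and no Cre driver and did not say which allele was in use in the sorted female cells. They did not say either whether each library came from its own animal, so the p-values measure only the spread between these libraries. Library numbers are those of the labels, where male floxed libraries are 1, 2 and 4.

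Replication-dependent histone genes lie in clusters and have no introns in most cases. Their messages are made mainly in S phase, and unlike other mRNAs they usually end in a short stem-loop in place of a poly(A) tail. The stem-loop is bound by the protein SLBP, directs cleavage of the 3' end and controls decay of the message when DNA synthesis stops. Some members also give poly(A) messages from a site further downstream, which are known from cells that have left the cycle. The same proteins are made from many near-identical gene copies, and reads that fit several copies equally well cannot be assigned to any of them.

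The stem-loop is shown first, because it is the feature that sets these messages apart and because its place in the annotated transcript differed between members with many and with few reads. A 16-base window was searched in the longest GENCODE transcript of each gene: a stem of 6 bases that starts with GG and is complementary to the last 6 bases, around a 4-base loop that starts with TT. It was found in 43 of 69 members (62.3%) and in 83 of 21810 other protein-coding genes (0.381%). The capitals below mark the stem-loop, in DNA letters as in the reference, with up to 5 bases on each side.
Hist1h1c: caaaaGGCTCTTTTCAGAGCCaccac
Hist3h2a: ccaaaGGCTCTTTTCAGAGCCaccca
Hist3h2ba: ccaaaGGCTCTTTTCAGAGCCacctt
Hist1h2bj: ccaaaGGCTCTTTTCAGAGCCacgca
Hist1h3f: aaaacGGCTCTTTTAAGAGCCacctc
Hist1h4d: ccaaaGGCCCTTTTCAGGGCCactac
Hist1h4b: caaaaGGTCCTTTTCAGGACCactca
The stem-loop of Hist1h1c was the most frequent and was identical in 25 members of the H1, H2A, H2B and H3 classes. The form of Hist1h4d was shared by 7 members, all of the H4 class, and that of Hist1h4b by 2, also H4. The form of Hist1h3f, which differs in the loop, occurred in 6 members of H1, H2B and H3. No match was found in the longest transcript of Hist1h1a, Hist1h2bc and Hist2h2be, which says only that a perfect match of this shape is not in that annotated sequence.

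The promoters of members with many reads were read from RefSeq (build GRCm38.p6), which held promoters matched to 61 of the 69 members. The 250 bases before the start were searched on both strands for TATAAA (the TATA box), CCAAT and TTTGCAT (7 letters of the octamer motif). A base could count toward more than 1 motif. TATAAA was in 46.8% of the 62 member promoters and in 12.4% of 32851 promoters of all genes, CCAAT in 82.3% and 33.8%, and TTTGCAT in 24.2% and 4.12%. By class, CCAAT was in 17 of 17 H2A, 17 of 17 H2B and 6 of 6 H1 promoters but in 3 of 12 H4 promoters. Of the 15 promoters with TTTGCAT, 14 were those of H2A or H2B genes. Promoters of some neighbouring H2A and H2B genes on opposite strands overlap, such as those of Hist1h2ae and Hist1h2bg. The same site can therefore count for both genes, and these counts are not independent. The 120 bases before the start of 3 members with high counts follow, with TATAAA and CCAAT on either strand in capitals. All 3 genes lie on the plus strand, at chr13:23738687-23738806 (Hist1h1c), chr11:58948791-58948910 (Hist3h2ba) and chr13:23581448-23581567 (Hist1h4d).
Hist1h1c: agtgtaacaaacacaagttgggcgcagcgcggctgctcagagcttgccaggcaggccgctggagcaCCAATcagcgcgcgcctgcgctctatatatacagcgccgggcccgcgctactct
Hist3h2ba: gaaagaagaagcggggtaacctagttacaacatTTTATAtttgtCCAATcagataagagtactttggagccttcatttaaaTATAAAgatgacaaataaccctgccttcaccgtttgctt
Hist1h4d: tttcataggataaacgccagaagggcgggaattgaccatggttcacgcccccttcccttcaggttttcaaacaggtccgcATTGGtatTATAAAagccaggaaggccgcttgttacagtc
Hist1h4d and Hist3h2ba had both motifs in these bases, while Hist1h1c had CCAAT alone. The search took exact letters only, so it does not show that Hist1h1c lacks a TATA box of another sequence.

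The reads of the family were very unequally spread. Over the 12 libraries 26810 reads were counted in the 69 genes, and 26784 of them (99.9%) fell in the 37 members on the plus strand. The 32 members on the minus strand had 26 reads in all and at most 3 in any library, and 22 of them had none. A low count of a minus-strand member therefore says nothing of its transcript level here. Of the 37 plus-strand members, Hist1h2aa, Hist1h2ao, Hist1h2br and Hist2h3c1 had 0 reads, which allows up to 0.0158 CPM (counts scaled to library size; 3 counts over the 189750260 gene counts of all libraries, counting error only). For Hist2h3c1 all 50-base windows of the longest transcript also occur in transcripts of other genes, for Hist1h2ao 93.5% and for Hist1h2br 88.5%, but for Hist1h2aa, a gene known from testis, 23.8%.

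Reads on the plus strand lay mostly in genes whose annotated transcript runs on well past the stem-loop. The 11 members with over 100 bases after it held 70.7% of the family's reads, with 5 to 6413 reads each apart from Hist2h3c1. The 12 members whose transcript ends within 100 bases of it held 5.46%, with at most 346 reads each, and the 14 members with no match held 23.8%. Among the first were Hist1h4d with 770 bases after the stem-loop, Hist1h1c with 840, Hist3h2a with 1643 and Hist1h1d with 4884. The median share of 50-base windows found also in other genes was 24.6% in the first set, 63.8% in the next and 75.6% in the last, so uniqueness and annotated length moved together with the counts, and the part of each was not tested. The annotation behind the deposited counts is not given in the sources used here, so the gene ends used for counting may differ from those of GENCODE. The plot of reads by strand and stem-loop shows each gene.

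**Figure D1:**
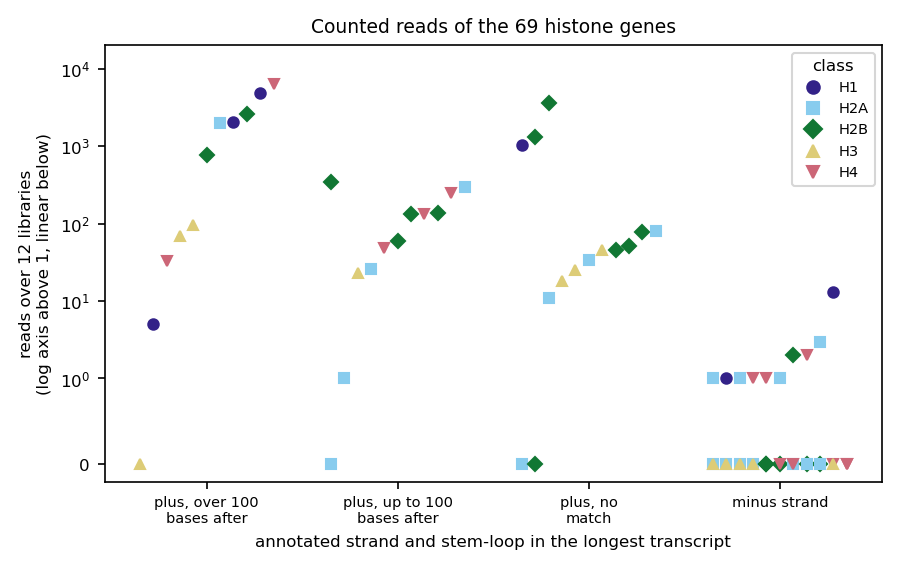
Reads summed over 12 libraries (y axis, logarithmic above 1 and linear below) for each of the 69 histone genes, split on the x axis by annotated strand and, on the plus strand, by the bases that follow the stem-loop in the longest GENCODE transcript. Colour and shape give the class. All genes with over 346 reads lie on the plus strand, either with over 100 bases after the stem-loop or with no match to it.

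Hist1h4d, Hist1h1c and Hist2h2be together held 55.9% of the family's reads and the top 6 members 80.7%. Scaled to library size as CPM and divided by the longest transcript in kilobases, Hist1h4d had the highest mean over all libraries at 30.1 CPM per kb, ahead of Hist3h2ba at 22.7 and Hist1h1c at 16.4. Hist2h2be, Hist1h1a, Hist1h2bg, Hist1h2bc and Hist3h2a followed between 7.61 and 5.19 CPM per kb, and the other 8 tested members lay between 3.92 (Hist1h2bj) and 0.387 (Hist1h3d). These levels depend on the assumed transcript length.

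Depth and quality of the libraries set what could be seen. Gene counts ran from 12423335 to 30244505 per library with a median of 14596845, and libraries within a group differed by more than sampling noise (chi-square per degree of freedom 5.11 to 171). Foxp3, the gene the enhancer acts on, averaged 2496 ± 238 CPM (SD, n = 3) in male floxed and 1792 ± 297 CPM (SD, n = 3) in male knockout libraries, and 2632 ± 43.8 CPM (SD, n = 3) and 1111 ± 621 CPM (SD, n = 3) in the female groups. Cd3d, a T cell marker on the plus strand, was at 776 to 1218 CPM in every library, while Cd4, by which the cells were sorted, lies on the minus strand and had 72 to 198 counts. Female knockout libraries 1 and 3 stand apart from library 2 of that group, with Foxp3 at 685 and 825 CPM against 1824 CPM. Spearman's rho across genes between a library's deviation from the mean and GC content was -0.355 and -0.257 in them, against -0.0994 in female knockout library 2 and -0.0877 to 0.112 in female floxed libraries. Reads without a unique position made up 17.3 and 16.8% in these 2 libraries, 15.8% in library 2 and 14.9 to 15.3% in floxed females. Such deviations were not particular to these libraries: male floxed library 4 and male knockout library 3 had the opposite sign, at 0.35 and 0.314. The female results on the family and on the members of highest level are given with and without female knockout libraries 1 and 3.

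The mean summed histone level was not higher in either knockout group, while that of listed S phase genes was. Of the histone reads 55.9% fell in 3 genes. Plus-strand members whose transcript ends within 100 bases of the stem-loop held only 5.46%, so the sum says little of them. Their summed means were 8.48 ± 2.40 CPM in floxed and 9.22 ± 2.66 CPM in knockout males. In females these were 8.04 ± 1.64 and 4.51 ± 2.82 CPM (SD, n = 3 each). The summed level of all 69 histone genes was 160.1, 163 and 173 CPM in male floxed libraries 1, 2 and 4 and 136, 160.2 and 153.5 CPM in male knockout libraries 1 to 3. In females it was 143, 162 and 172 CPM in floxed libraries and 62.5, 146 and 82.3 CPM in knockout libraries 1 to 3. In males knockout libraries 1 and 3 lay below all floxed libraries and knockout library 2 level with floxed library 1. In such bulk samples fewer cells of a type and less RNA per cell cannot be told apart. Among females library 2 of the knockouts fell within the floxed range while libraries 1 and 3 fell below it. As group means this was 165.5 ± 6.81 against 149.9 ± 12.5 CPM in males and 159 ± 14.5 against 97.0 ± 43.8 CPM in females (SD, n = 3 each). No test was run on a sum over chosen genes.

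A list of 30 S phase genes, such as the MCM helicase gene Mcm5, was summed in the same way. It was at 1460 to 1980 CPM in male floxed and 2501 to 2716 CPM in male knockout libraries. In females it was at 1485 to 1720 against 2629 to 2869 CPM. The 24 genes of the G2 and M phase were at 789 to 1502 against 1507 to 2081 CPM in males and 921 to 1058 against 1652 to 1773 CPM in females. Neither list overlapped between genotypes in either sex. Of the tested genes, 13 of 25 in S phase and 11 of 20 in G2 and M phase lie on the plus strand. Low counts of the others are uncertain here, so the sums do not weigh all members alike. Mcm5 and Rrm1 on the plus strand averaged 476 and 405 CPM. On the minus strand Mcm2, Mcm3, Mcm4, Mcm6 and Mcm10 averaged 0.247 to 11.5 CPM, but Mcm7 and Pcna 154 and 135 CPM. Female knockout libraries 1 and 3, with the lowest histone sums of all 12 libraries, had S phase sums of 2717 and 2869 CPM, no lower than in the other knockout libraries. Some S phase genes were nonetheless low in these libraries. Rrm2 was at 61.2 and 99.8 CPM there against 255 CPM in female knockout library 2, and Cdt1 at 2.54 and 5.16 against 29.8 CPM. Others such as Rrm1 were not, at 648 and 601 against 475 CPM. In females 21 of 25 tested S phase genes had a log2 fold change above 0. In the fit over both sexes 13 of 25 tested S phase genes rose and none fell, with a median log2 fold change of 0.64, beside 2.68% of all tested genes that rose, and 7 of 20 tested G2 and M phase genes rose and none fell, with a median of 0.88. Pole, the leading-strand DNA polymerase subunit, rose by 0.88 (SE 0.10, edgeR adjusted p = 0.00325) and Prim1, the primase, by 0.88 (SE 0.10, edgeR adjusted p = 0.00325). Without female knockout libraries 1 and 3 the counts were 2 of 26 and 0 of 21, with medians of 0.58 and 0.81. These lists were chosen with earlier results of these data known, and whether histone genes differ from them was not tested.

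**Figure D2:**
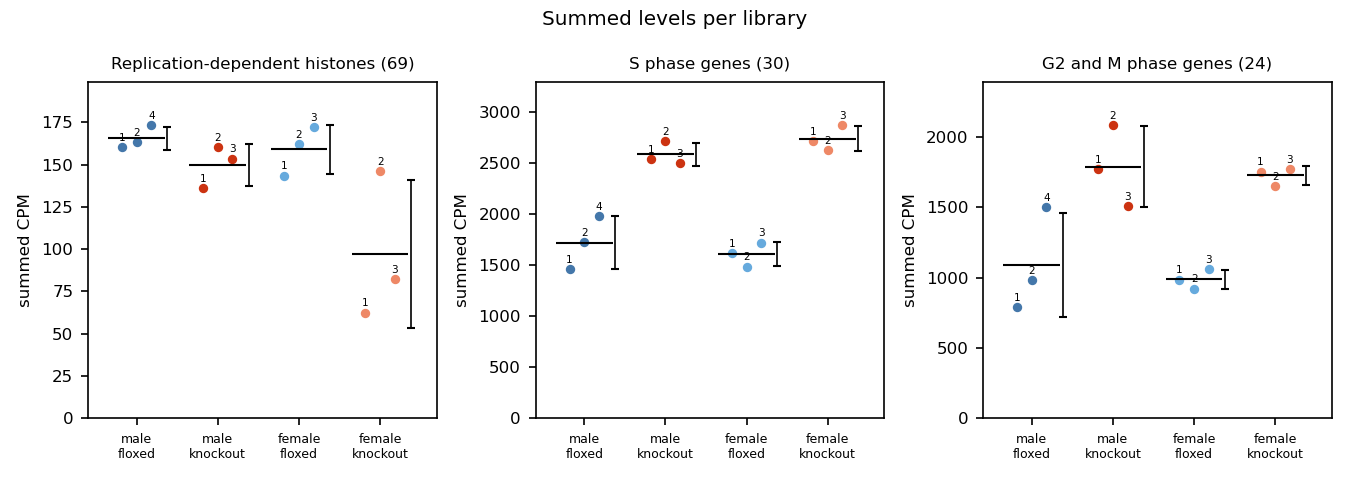
Summed CPM per library (y axes, from 0) of the 69 histone genes, 30 S phase genes and 24 G2 and M phase genes, by sex and genotype. Points are libraries with their number, horizontal lines are means and the bars beside them 1 SD (n = 3). S phase sums are at 2501 CPM or above in all 6 knockout libraries and at 1980 CPM or below in all 6 floxed libraries, whereas the histone sums of knockout libraries reach from 62.5 CPM into the floxed range, with male knockout libraries 1 and 3 below the floxed males and female knockout libraries 1 and 3 the lowest of all.

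Among the tested members none passed an adjusted p of 0.05 in any comparison (edgeR, quasi-likelihood, Benjamini-Hochberg over all 12411 tested genes). In males 0.0242% of all genes passed, in females 0.201% (0.0161% lower in knockout), over both sexes 3.31% (0.637% lower) and for the difference between the sexes 0%. At an unadjusted p under 0.05, 0 of 16 members passed in males, 3 in females (Hist1h4h, Hist3h2a and Hist3h2ba), 2 over both sexes (Hist3h2a and Hist3h2ba) and 1 for the difference (Hist1h2bj), beside 8.12, 19.2, 20.2 and 2.73% of all genes. DESeq2 called 0 members in each comparison, beside 1.64, 6.32, 7.67 and 0% of all genes. The median log2 fold change, knockout over floxed, was -0.11 in males, -0.85 in females and -0.42 over both sexes, with 9, 14 and 14 of 16 members below 0. Over all tested genes the medians were 0.01, -0.02 and -0.02, with 48.2, 51.2 and 52.3% of genes below 0.

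The female median rested on 2 libraries. Without female knockout libraries 1 and 3 it was -0.13 over 18 tested members, where the remaining library of its group was taken to have the spread of the others, and without female knockout library 2 it was -1.56. With that library left out 7 of 17 members were called lower in females and 7 over both sexes, and 4 for the difference, beside 23.7, 22.6 and 8.5% of all genes called in either direction. Limma-voom, with weights for library quality, called 0 members in males, 11 in females, 8 over both sexes and 4 for the difference, beside 1.43, 43.8, 37.3 and 8.38% of all genes. A replicate block with the GC and length correction called 0 in males, 0 in females and 2 over both sexes, beside 2.97, 3.01 and 15% of all genes. Male floxed library 4 and male knockout library 3 had no same-numbered partner, so the block took them out of the genotype difference. With the GC and length correction and no block the female median was -0.53, with no call. In 12 of 16 members the lowest 2 of the 6 female libraries were knockout libraries 1 and 3, a pattern held by 30.1% of all tested genes, and in 11 of 16 female knockout library 2 lay within the floxed range, as in 47.1% of all tested genes.

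**Figure D3:**
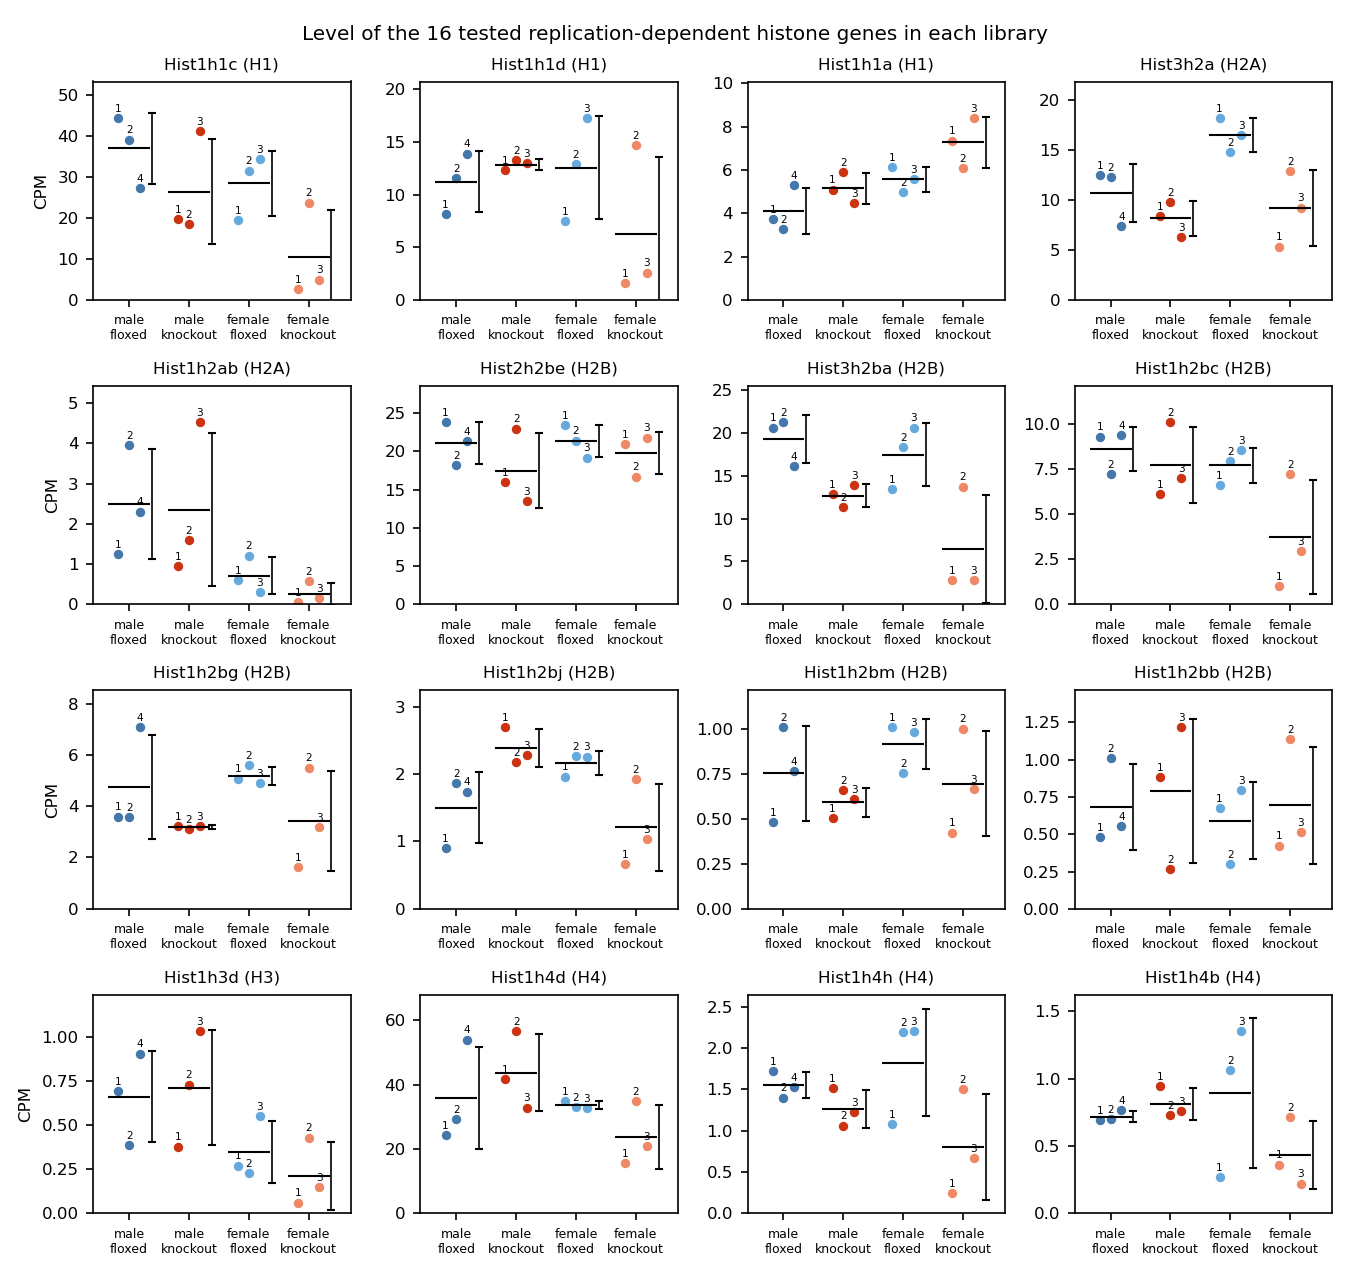
CPM of each tested histone gene in the 12 libraries (y axes, from 0, each on its own scale), grouped by class, sex and genotype. Points carry the library number, horizontal lines are means and the bars beside them 1 SD (n = 3), cut off at 0. In most panels female knockout libraries 1 and 3 are low and library 2 lies near the floxed libraries, while Hist1h1a and Hist2h2be have no such gap.

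The linker histones, which bind the DNA between nucleosomes, went different ways. Hist1h1c was at 44.4, 39.1 and 27.3 CPM in male floxed libraries 1, 2 and 4 and at 19.7, 18.4 and 41.1 CPM in male knockout libraries 1 to 3. In females it was at 19.4, 31.5 and 34.3 CPM in floxed and 2.54, 23.7 and 4.94 CPM in knockout libraries. The genotypes overlapped in both sexes, since male knockout library 3 lay among the floxed males and female knockout library 2 among the floxed females. Its log2 fold change was -0.48 (SE 0.67, edgeR adjusted p = 0.999) in males and -1.45 (SE 0.69, edgeR adjusted p = 0.277) in females. The male value was -0.94 without male knockout library 3, still uncalled. The female value was -0.26 without knockout libraries 1 and 3 and -2.91 without knockout library 2, and over both sexes Hist1h1c was called lower without that library (-1.69, edgeR adjusted p = 0.00437). Hist1h1d was at 8.14, 11.6 and 13.9 CPM in floxed and 12.3, 13.3 and 13.0 CPM in knockout males, and at 7.50, 12.9 and 17.3 CPM in floxed and 1.57, 14.7 and 2.58 CPM in knockout females. Here too only female knockout libraries 1 and 3 lay below the rest, and the female log2 fold change, which was not called at -1.0, was 0.23 without them and -2.58 without library 2. Both transcripts were largely unique, with 8.54 and 2.25% of their 50-base windows found in any other gene.

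Hist1h1a, a further linker histone, did not share that gap. It was at 3.73, 3.26 and 5.29 CPM in floxed and 5.09, 5.89 and 4.48 CPM in knockout males, and at 6.15, 4.98 and 5.57 CPM in floxed and 7.36, 6.08 and 8.41 CPM in knockout females. Its highest values were those of female knockout libraries 3 and 1, and the genotypes overlapped in each sex. Over both sexes its log2 fold change came to 0.36 (SE 0.16, edgeR adjusted p = 0.251), the largest positive value of the 16. In females alone it was 0.39, and 0.13 without knockout libraries 1 and 3. Of the other H1 genes, the testis gene Hist1h1t had 5 reads in all, and Hist1h1b and Hist1h1e on the minus strand had 1 and 13.

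For H2A, which pairs with H2B at the outer faces of the nucleosome, 2 of 20 genes could be tested. Hist3h2a was at 12.5, 12.3 and 7.37 CPM in floxed and 8.37, 9.79 and 6.27 CPM in knockout males. In females it was at 18.2, 14.8 and 16.5 CPM in floxed and 5.31, 12.9 and 9.22 CPM in knockout libraries, all 3 of them below each floxed library, whereas the male genotypes overlapped. The log2 fold change was -0.40 (SE 0.33, edgeR adjusted p = 0.937) in males, -0.85 (SE 0.33, edgeR adjusted p = 0.217) in females and -0.62 (SE 0.23, edgeR adjusted p = 0.171) over both sexes. The female value was -0.35 without knockout libraries 1 and 3 and -1.18 without library 2. The annotated transcript of Hist3h2a shares 708 exonic bases with another gene of its own strand, so its count is uncertain. Hist1h2ab was at 0.943 to 4.52 CPM in males and 0.0604 to 1.21 CPM in females, with overlap between genotypes in both sexes. Its values rest on 1 to 119 counts per library. Exons of genes on the opposite strand overlap Hist1h2ab, Hist3h2a and Hist1h4b, and the strand setting of the counting is not given, so these counts are uncertain.

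The H2B class had the most tested members, 7 of 18. Its sum was 55.5 to 60.5 CPM in floxed and 42.8 to 51.6 CPM in knockout males, and 53.4 to 58.9 against 29.1 to 48.5 CPM in females, with no overlap in either sex and no test on the sum. Hist2h2be and Hist3h2ba held 3662 and 2595 of the 9164 reads of this class, so the sum is mostly theirs. Most tested H2B members overlapped between genotypes in each sex, and Hist1h2bj was higher in knockout males, as given below. The sums of the other 4 classes overlapped between genotypes in males, and that of H4 had a higher mean in knockout males, at 46.2 against 38.5 CPM. In females the H2A sum was separate too, at 16.6 to 19.1 CPM in floxed and 5.43 to 13.8 CPM in knockout libraries. Those of H1, H3 and H4 overlapped in females. Hist3h2ba was at 20.6, 21.2 and 16.1 CPM in floxed and 12.8, 11.3 and 13.9 CPM in knockout males. In females it was at 13.4, 18.3 and 20.6 CPM in floxed and 2.78, 13.7 and 2.80 CPM in knockout libraries. All knockout males lay below all floxed males, and in females knockout library 2 just exceeded the lowest floxed library. The log2 fold change was -0.60 (SE 0.52, edgeR adjusted p = 0.960) in males, -1.44 (SE 0.53, edgeR adjusted p = 0.210) in females and -1.02 (SE 0.37, edgeR adjusted p = 0.166) over both sexes, the most negative of the 16. The female value was -0.35 without knockout libraries 1 and 3. Without female knockout library 2 it was -2.63 in females and -1.61 over both sexes (edgeR adjusted p = 0.00117).

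Hist2h2be, another H2B gene, lacked the gap between female knockout libraries. It was at 23.8, 18.2 and 21.3 CPM in floxed and 16, 23 and 13.5 CPM in knockout males, and at 23.4, 21.4 and 19.2 CPM in floxed and 21, 16.7 and 21.8 CPM in knockout females. Female knockout libraries 1 and 3 lay within the floxed range, unlike for most members, and over both sexes it differed by -0.19 (SE 0.16, edgeR adjusted p = 0.505). The female log2 fold change of Hist2h2be was -0.11, and -0.35 without knockout libraries 1 and 3. For Hist2h2be and Hist1h1a no 50-base window occurs in another gene. Hist1h2bc, with no stem-loop match either, was at 6.10 to 10.1 CPM in males and 6.62 to 8.57 CPM in floxed females, and at 1.03, 7.22 and 2.95 CPM in knockout females 1 to 3, so that libraries 1 and 3 were low again.

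Hist1h2bj was the only tested member whose genotypes were separate in both sexes, and the directions were opposite, as in 0.177% of all tested genes. It was at 0.897, 1.86 and 1.74 CPM in floxed and 2.70, 2.18 and 2.28 CPM in knockout males, and at 1.96, 2.27 and 2.26 CPM in floxed and 0.664, 1.93 and 1.03 CPM in knockout females. The log2 fold change was 0.67 (SE 0.38, edgeR adjusted p = 0.767) in males and -0.84 (SE 0.39, edgeR adjusted p = 0.264) in females, where it was -0.16 without knockout libraries 1 and 3 and -1.34 without library 2. In males 1 of 16 members (Hist1h2bj) was higher in knockouts without overlap, beside 8.2% of all tested genes, and 2 (Hist1h2bg and Hist3h2ba) were lower, beside 6.13%. In females 2 (Hist1h2bj and Hist3h2a) were lower without overlap, beside 9.7%, and 0 were higher, beside 15.3%. Hist1h2bj had 11 to 60 counts per library. Hist1h2bg was at 3.11 to 3.23 CPM in the 3 knockout males, just below the 3.57 CPM of the lowest floxed male. Hist1h2bm and Hist1h2bb did not exceed 1.22 CPM in any library and overlapped in both sexes.

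H3 and H4 form the core tetramer of the nucleosome. The 12 H3 genes had 277 reads together, 1.03% of the family's reads, and Hist1h3d was the only one tested, at 0.377 to 1.03 CPM in males and 0.0604 to 0.551 CPM in females. Hist1h3f, next in level, was at 0 to 1.01 CPM and was not tested. The SE of the log2 fold change of Hist1h3d was 0.59 in males and 0.72 in females, so small differences in H3 were not detectable at this depth. For H4, Hist1h4d was at 24.3, 29.4 and 54.0 CPM in floxed and 41.8, 56.6 and 32.9 CPM in knockout males, and at 35, 33 and 32.7 CPM in floxed and 15.6, 35 and 20.8 CPM in knockout females. Male values overlapped widely, and female knockout library 2 again matched the floxed libraries. The log2 fold change was 0.28 (SE 0.35, edgeR adjusted p = 0.999) in males and -0.50 (SE 0.36, edgeR adjusted p = 0.432) in females, where it was 0.07 without knockout libraries 1 and 3 and -0.88 without library 2. Hist1h4h was at 1.06 to 1.72 CPM in males, 1.08 to 2.20 CPM in floxed females and 0.241 to 1.5 CPM in knockout females, and Hist1h4b at 0.221 to 1.35 CPM over all libraries.

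**Figure D4:**
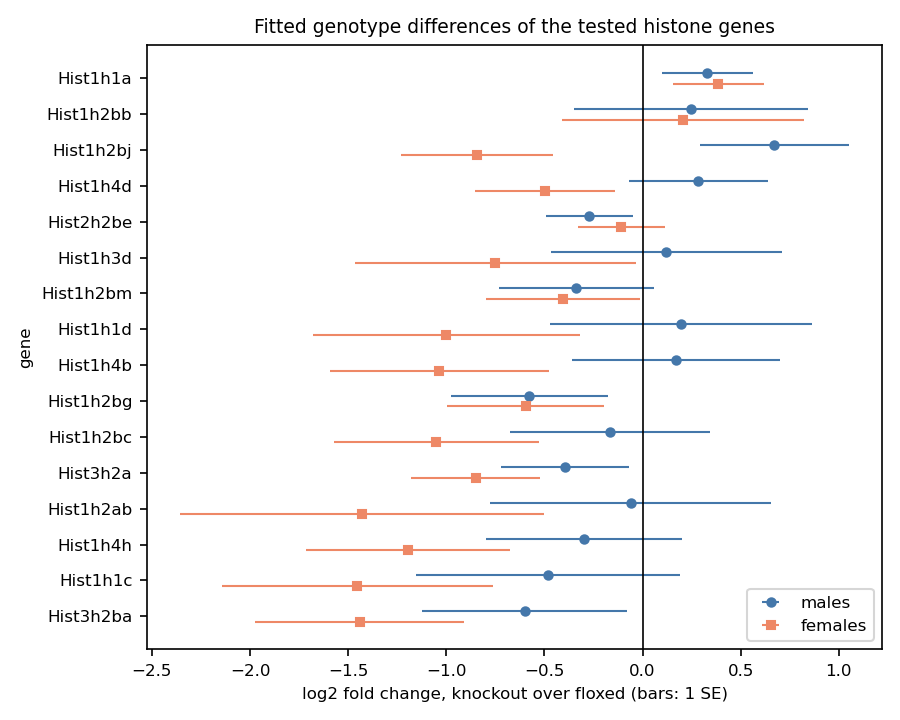
Fitted log2 fold change of knockout over floxed (x axis) for each tested histone gene (y axis), in males (circles) and females (squares), with bars of 1 SE from edgeR's quasi-likelihood fit. Female values lie below male values in 14 of 16 genes, and none of the differences between the sexes passed the test.

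For the difference between the sexes, female minus male, 14 of 16 members were below 0 with a median of -0.86, beside 54.1% of all tested genes and a median of -0.05, and none passed (edgeR adjusted p between 0.892 and 0.996). The 21 plus-strand members that were not tested had at most 28 counts in a library and mean levels of at most 0.407 CPM. They added little to the sums, since the 53 untested members held 2.53% of the family's reads.

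Genes that make, process and handle histone messages were examined as lists. For transcription and 3' end processing of histone mRNA, 0 of 14 tested genes passed over both sexes, with a median of 0.04. Slbp, the stem-loop binding protein, on the minus strand, was at 71.6 to 75.9 CPM in floxed and 82.6 to 116.9 CPM in knockout males, without overlap, and at 70.3 to 80.9 against 48.8 to 105.8 CPM in females. It differed over both sexes by 0.19 (SE 0.18, edgeR adjusted p = 0.567). Its lowest libraries were female knockout 1 and 3, at 48.8 and 59.5 CPM. Npat, the coactivator of histone gene transcription, differed by 0.20 (SE 0.09, edgeR adjusted p = 0.261), Casp8ap2 by 0.15 (SE 0.10, edgeR adjusted p = 0.435) and Cpsf3, the endonuclease of the 3' end, by 0.26 (SE 0.07, edgeR adjusted p = 0.0815). In contrast to most tested histone genes, but like Hist1h1a, Npat was highest in female knockout libraries 1 and 3, at 231 and 209 CPM. For decay of histone mRNA 0 of 12 passed, with a median of 0.00. Without female knockout libraries 1 and 3 neither list had a call, with medians of 0.10 and -0.05. Without female knockout library 2 the calls were 3 higher and 4 lower of 14 processing genes and 1 higher and 4 lower of 12 decay genes, in a fit that called 22.6% of all genes.

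Histone chaperones, which carry new histones to DNA, had 2 of 20 tested genes higher over both sexes and none lower, with a median of 0.17. Of all tested genes 2.68% were called higher and 0.637% lower. Asf1b, a chaperone of H3 and H4, rose by 1.02 (SE 0.16, edgeR adjusted p = 0.0105). Its means were 72.3 ± 24.1 CPM in floxed and 138 ± 3.94 CPM in knockout males, and 65.9 ± 5.51 CPM in floxed and 142 ± 29.3 CPM in knockout females (SD, n = 3 each). Hat1, which acetylates new H4, rose by 0.48 (SE 0.11, edgeR adjusted p = 0.0420). Asf1b was higher in each knockout library than in every floxed library of the same sex. Hat1 was so in females, but male knockout library 3, at 133 CPM, lay within the floxed range of 127 to 141 CPM. Without female knockout libraries 1 and 3, which leaves 1 library in that group, the median of the list was 0.17. Without female knockout library 2 the counts were 5 higher and 2 lower, in a fit that called 22.6% of all genes. After the GC correction 1 of 20 was called higher.

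The histone genes that are not tied to replication were mostly below 0 in females, with 1 of 9 tested above 0 there and 6 of 9 in males. None of the 9 passed in any comparison, with a median over both sexes of -0.34. H2afz, whose product replaces H2A at promoters, was at 427.5, 443 and 501 CPM in floxed and 679, 714 and 597 CPM in knockout males, with no overlap, and at 427, 459.5 and 459.5 CPM against 364, 608 and 413.5 CPM in females, with overlap. It differed over both sexes by 0.29 (SE 0.12, edgeR adjusted p = 0.214). H2afx, which is phosphorylated at DNA breaks and whose message is known to exist in a stem-loop form as well, was at 69.2, 165 and 106.5 CPM in floxed and 38.4, 72.3 and 260 CPM in knockout males. In females it was at 12.9, 32.5 and 35.4 CPM in floxed and 1.99, 30.7 and 2.14 CPM in knockout libraries, the same order of libraries as for Hist1h1c in females. H2afx differed over both sexes by -0.55 (SE 0.71, edgeR adjusted p = 0.681). Without female knockout libraries 1 and 3 the median of the 9 was 0.06. Without library 2 it was -0.81 with 3 called lower, in a fit that called 22.6% of all genes.

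Other cells in the sort were checked by their markers. The 10 genes of immature double-positive thymocytes, cells of the thymus that divide, summed to 202 to 396.5 CPM in floxed and 210 to 424 CPM in knockout males and to 312 to 427 against 331 to 755 CPM in females. The highest 2 of all 12 libraries were female knockout libraries 3 and 1, at 755 and 463 CPM, the same that were low in histone genes. The 18 myeloid and dendritic genes summed to 103 to 1593 against 229 to 1723 CPM in males and 265 to 1100 against 820 to 1617 CPM in females. None of the tested genes of these lists, 6 and 11, passed over both sexes. Among defining markers Krt5, Krt14 and Foxn1 of thymic epithelium and Klrb1c of NK cells had 0 reads in all libraries. All of these lie on the minus strand, so their lack of reads does not show that such cells were absent. On the plus strand, the epithelial gene Epcam reached 45.0 CPM in male knockout library 3 and Psmb11 43.4 CPM in female knockout library 3. The 6 NK genes summed to 286 CPM in female knockout library 1 and to 159 to 215 CPM in the other libraries. Nkg7 alone supplied 266.5 of these 286 CPM, so the sum mostly follows this gene. Klrd1 had only 1.09 CPM in that library and reached 8.20 CPM in male knockout library 2. Prf1, with 18.35 CPM there, lay within the 14.65 to 19.17 CPM of the other libraries. B cell genes stayed at 17.1 to 67.0 CPM, erythroid genes at 5.36 to 35.8 CPM and thymic epithelial genes at 3.26 to 52.5 CPM, and no tested gene of these 4 lists passed over both sexes. The part of other cells in the histone values was not tested.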

How the data were processed

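The authors deposited 1 whole-number read count for each gene and library, not normalized. The submitters' processing notes list build mm9 and the tools HTSeq 0.6.1p1, STAR (2.3.0e, 2.5.2b) and CASAVA, without their roles. The annotation and strand setting are not given in the sources used here. Libraries were made from total RNA with a stranded kit, per the labels' protocols. The 5 HTSeq summary entries were left out of library sizes; reads in genes were 29.5 to 35.7% of a library.

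Genes were filtered with filterByExpr (12411 of 55453 kept), scaled by TMM and fitted with edgeR 4.0.16 (R 4.3.3) by quasi-likelihood, with a mean for each of the 4 groups and all 12 libraries in the fit, with Benjamini-Hochberg adjustment at 0.05. CPM are counts over the TMM-adjusted library size. Strand, length, GC content and transcripts came from GENCODE M21 by symbol, with promoters from RefSeq. The pipeline was tested on simulated data. Alternatives were RLE, DESeq2 1.42.0, limma-voom (limma 3.58.1) with quality weights, other filters, plus-strand genes alone, a GC and length offset, a replicate block, libraries of 1 sex, and libraries left out. Named genes were the top 2 members per class by mean CPM, members with a call, up to 4 genes per list with the smallest p, and Slbp, Npat, Casp8ap2, H2afx, H2afz and Foxp3. Hist1h1a, Hist1h2bc, Hist1h2bg, Hist1h2bj and other members were named after their values were seen. Members, lists and tests were chosen with earlier results of these data known. Figures were drawn with matplotlib 3.10.9.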

Additional observations from a re-analysis of the deposited data

Results flagged for a closer look

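Hist1h2bj differed in direction between the sexes: each of the 3 knockout males lay above each floxed male, and each of the 3 knockout females below each floxed female. The female minus male log2 fold change was -1.51 (SE 0.54), with an unadjusted p of 0.0178 and an adjusted p of 0.892 by edgeR, so the difference did not pass the test over all genes. Such opposite separation was seen in 22 of 12411 tested genes (0.177%).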

How the results depend on the processing

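The count of called histone genes, 0 in each comparison, was also 0 with RLE, DESeq2, other filters, plus-strand genes alone, the GC and length offset, the replicate block and the libraries of 1 sex. Limma-voom with quality weights called 11 members in females (10 lower, Hist1h1a higher), 8 over both sexes (7 lower, 1 higher) and 4 for the difference between the sexes, beside 43.8, 37.3 and 8.38% of all genes. With each library left out in turn the count ran from 0 to 7 in females, from 0 to 7 over both sexes, from 0 to 4 for the difference and stayed at 0 in males. Every call came without female knockout library 2. The median log2 fold change then ran from -1.56 to -0.55 in females, -0.80 to -0.36 over both sexes and -0.22 to -0.03 in males, and was -0.13 in females without female knockout libraries 1 and 3. The group means of the family sum ran from 162 to 168, 145 to 157, 153 to 167 and 72.4 to 114 CPM in male floxed, male knockout, female floxed and female knockout libraries. The replicate numbers did not pair the samples, with correlations of same-numbered deviations between -0.614 and 0.442. The replicate block alone called 0 members and gave a median of -0.43 over both sexes. With the GC and length offset the block called 2 lower over both sexes, Hist1h1c (-1.41) and Hist3h2ba (-1.10), beside 15% of all genes. Male floxed library 4 and male knockout library 3 had no same-numbered partner, so the block took them out of the genotype difference. In that fit the male value of Hist1h1c was -1.12, beside -0.48 in the main fit. Of 1063 single-gene values under alternatives, 35 gained a call; since no member was called at first, none could be lost. Over both sexes 3 uncalled values changed sign with a library left out: Hist1h2bb (-0.05 to 0.43), Hist1h2bj (-0.33 to 0.05) and Hist1h4d (-0.29 to 0.10). Members with few counts limit what a test could show.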
